A study of Mus musculus with 8 samples.

Results

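The 9 complement genes C1qa, C1qb, C1qc, C1s, C2, C3, C4b, Cfb and Serping1 were followed in ovarian tumours of mice given AZD1480, a small-molecule inhibitor of the kinases JAK1 and JAK2, and of mice given vehicle. They were chosen by gene symbol as components of complement and are 9 of the 27240 gene symbols on the array. Of the 39429 probes that are not controls, 11 measure them: C3 and Serping1 have 2 probes each and the other genes 1. All 9 passed the filter on dim probes, with signal well above background on all 8 arrays and 0 saturated spots.

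The tumours came from female C57BL/6JTgMISIIR-TAg mice, whose SV40 T antigen transgene is driven by the promoter of Amhr2, the receptor gene for Müllerian inhibiting substance, so all animals of both groups carried the transgene. Mice whose tumours had reached about 500 mm3 received either AZD1480 at 30 mg/kg, given in 0.5% hypermellose and 0.1% Tween 80, or that vehicle alone, and tumour tissue was taken after 6 hours. There were 4 mice and 4 Agilent one-colour arrays per group, 1 tumour per array. A 500 ng amount of total RNA was amplified and labelled with Cy3 for each array. Values are log2 processed intensities relative to the 75th percentile of the same array, and a difference is AZD1480 minus vehicle on that log2 scale, with limma's moderated SE.

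Complement is a cascade of plasma and tissue proteins that tags surfaces for uptake and lysis. In the classical pathway the C1q hexamer, built from the A, B and C chains, binds immune complexes or dying cells and activates the proteases C1r and C1s, which cut C4 and C2 into a convertase that splits C3. Factor B, the product of Cfb, forms the convertase of the alternative pathway, and C1 inhibitor, the product of Serping1, blocks C1r and C1s. The liver makes most of the circulating C3, C4 and factor B. In tissues, macrophages are a main source of C1q, while epithelial cells, fibroblasts and macrophages transcribe C3, C4 and Cfb after interferon, interleukin-6 or other cytokine signals, some of which act through the JAK kinases.

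The arrays measured whole tumour tissue. Of 12 listed epithelial genes 12 were measured above the filter, as were 12 of 12 stromal genes and 19 of 20 macrophage genes, Cd163 being the exception. Of 10 hepatocyte genes 6 were measured: Apoa2, Serpina1a, Fga, Trf and Tat were well above background on all 8 arrays and Ahsg on 3 AZD1480 and 4 vehicle arrays, while Alb, Apoa1, Ttr and Fgb did not pass the filter. In bulk tissue fewer cells of a type and less RNA per cell cannot be told apart.

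The arrays lay on 2 slides, scanned separately, each with 2 AZD1480 and 2 vehicle tumours. Slide 1 was the brighter, with array 75th percentiles between 4706 and 5795, against 1587 and 2783 for slide 2, and between 66.9% and 76.4% of the spots of an array were well above background. AZD1480 replicate 1 stood apart: its median correlation with the other arrays over all genes was 0.887, against 0.958 to 0.972 for each of the other 7. Its values are therefore named below, and the results of the 9 genes are also given without it. Over all 19778 genes tested, limma gave 0 genes at a Benjamini-Hochberg adjusted p under 0.05 (0% called), with 345 lower (1.74%) and 340 higher (1.72%) at an unadjusted p under 0.05 and a smallest adjusted p of 0.647. The median gene was at 0.045.

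The comparison that follows sets C1q chains against inducible components, so the probes that read the A and B chains of C1q and factor B are shown. They are 60 bases each, copied from the array files, with positions on the mm9 build, minus strand. The C1qa probe lies at chr4:136452409-136452468 and the C1qb probe at chr4:136436578-136436637, in the same cluster as C1qc. The Cfb probe spans chr17:34993502-34993858, a stretch of 357 bases for a probe of 60, so its bases lie on both sides of an intron.
C1qa: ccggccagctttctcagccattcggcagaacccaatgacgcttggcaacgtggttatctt
C1qb: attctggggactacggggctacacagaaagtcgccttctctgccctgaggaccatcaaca
Cfb: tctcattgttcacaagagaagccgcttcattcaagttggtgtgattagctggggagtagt

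Promoter sequence from RefSeq (GRCm38.p6, from 250 bases before the start site to 50 after it) was matched for 4 of the 9 genes: C1qb, C1qc, C1s and C3. The promoters of C3 and C1qc are printed because these genes stand for the 2 sets compared, an inducible component and a C1q chain. Both are on the minus strand, C3 at chr17:57228087-57228386 and C1qc at chr4:136892865-136893164. Capitals mark the motif matches found in either strand.
C3: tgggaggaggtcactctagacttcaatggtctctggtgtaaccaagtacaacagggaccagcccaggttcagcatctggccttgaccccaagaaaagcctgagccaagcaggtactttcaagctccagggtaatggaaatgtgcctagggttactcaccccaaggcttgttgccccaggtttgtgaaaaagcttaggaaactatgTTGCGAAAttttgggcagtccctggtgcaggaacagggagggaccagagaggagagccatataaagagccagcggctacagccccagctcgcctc
C1qc: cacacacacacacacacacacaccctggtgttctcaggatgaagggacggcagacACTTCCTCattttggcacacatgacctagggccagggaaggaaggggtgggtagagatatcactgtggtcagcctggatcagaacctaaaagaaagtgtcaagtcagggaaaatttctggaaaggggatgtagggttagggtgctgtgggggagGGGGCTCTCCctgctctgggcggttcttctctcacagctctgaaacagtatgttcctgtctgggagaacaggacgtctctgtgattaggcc

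The searched motifs were the STAT site GAS (TTCNNNGAA), the interferon response element ISRE (GAAA, any 2 bases, GAAA), C/EBP (TTGCNNAA), PU.1 (GAGGAAGT) and NF-kB, each on both strands. The C3 promoter holds a C/EBP match, TTGCGAAA, 45 bases before the start site. The C1qc promoter holds a PU.1 match, read on the other strand as ACTTCCTC, 195 bases before the start site, and an NF-kB match 41 bases before it. That of C1s holds a C/EBP match 242 bases before its start, and that of C1qb holds no match to any of the motifs. Of 32851 promoters of this length, 10.8% hold the C/EBP letters, 3.20% those of PU.1, 8.46% those of NF-kB, 8.30% those of GAS and 3.44% those of ISRE. The GAS and ISRE letters are not in the windows of these 4 genes, and the matches are descriptions of letters.

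All 9 complement genes had a lower mean in AZD1480 tumours than in vehicle tumours, and 0 of the 9 passed limma's test across all genes (adjusted p = 0.974 for each). At an unadjusted p under 0.05 there were 3, C4b, Cfb and Serping1, where 1.74% of all genes were lower by that rule. Of all genes, 43.5% had a difference below 0 and 56.5% one above 0. Differences of -1 or lower were found for 4 of the 9, C2, C3, Cfb and Serping1, and for 5.23% of all genes, while 1.89% of all genes had one of 1 or higher. For 0 of the 9 were the 4 AZD1480 arrays all below the 4 vehicle arrays, which was so for 1.41% of all genes. The 9 genes share the same 8 arrays, and AZD1480 replicate 1 was the lowest of the 8 for 7 of them.

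**Figure D1:**
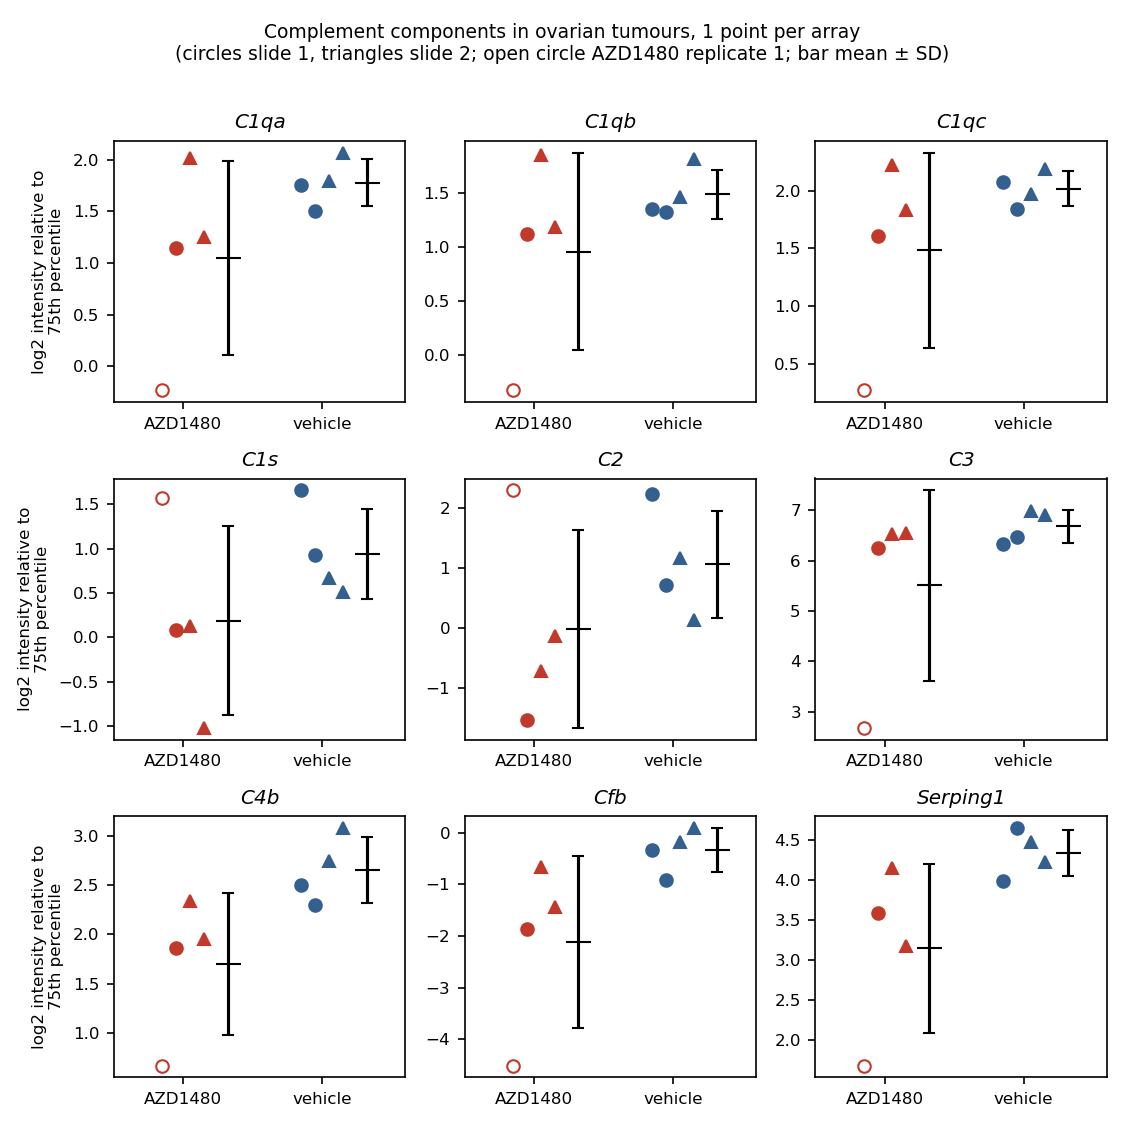
Log2 processed intensity relative to the 75th percentile of the array (y axis) for each complement gene in AZD1480 tumours (red, left) and vehicle tumours (blue, right), 1 point per array, with bars at the mean ± SD (n = 4). The open circle is AZD1480 replicate 1, the lowest array for 7 genes, the second highest for C1s and the highest for C2. Circles are slide 1 and triangles slide 2.

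The 3 chains of C1q, the recognition molecule of the classical pathway, were lower on average in AZD1480 tumours without passing the test, and each was lowest in AZD1480 replicate 1. C1qa, the A chain of C1q, was at -0.23, 1.15, 2.02 and 1.26 in AZD1480 replicates 1 to 4, against 1.75, 1.50, 1.79 and 2.07 in vehicle replicates 1 to 4. The lowest value was AZD1480 replicate 1, replicates 2 and 4 lay under all vehicle arrays, and replicate 3 lay within the vehicle range, so the groups overlapped. The means were 1.05 ± 0.94 in AZD1480 and 1.78 ± 0.23 in vehicle (SD, n = 4 each), a difference of -0.73 ± 0.44.

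C1qb, the B chain, was at -0.33, 1.12, 1.84 and 1.19 in AZD1480 replicates 1 to 4, against 1.35, 1.32, 1.46 and 1.81 in vehicle. Here replicate 3 of AZD1480 was higher than every vehicle array and the other 3 were lower than every one. The difference was -0.53 ± 0.43, with means of 0.96 ± 0.91 in AZD1480 and 1.49 ± 0.23 in vehicle (SD, n = 4 each). C1qc, the C chain, read by 10 spots per array, was at 0.27, 1.61, 2.22 and 1.83 in AZD1480 and at 2.07, 1.84, 1.97 and 2.19 in vehicle. It had the same order, with AZD1480 replicate 3 above and the other 3 AZD1480 arrays below the vehicle range, and a difference of -0.54 ± 0.40. When AZD1480 replicate 1 was left out, the differences of the C1q chains were -0.30 ± 0.26 for C1qa, -0.10 ± 0.23 for C1qb and -0.13 ± 0.19 for C1qc. Within slide 1 they were -1.17, -0.94 and -1.02, and within slide 2 they were -0.29, -0.12 and -0.054.

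The chains varied together across the 8 arrays, with Pearson correlations between 0.984 and 0.987 for the pairs of chains, and between 0.905 and 0.956 over the 7 arrays without AZD1480 replicate 1. These correlations share arrays and scaling, and are descriptions. The macrophage list, which holds no complement gene, followed the same arrays. Its mean, centred on vehicle, was -1.83, -0.51, 0.12 and -0.44 in AZD1480 replicates 1 to 4, against a range of -0.29 to 0.41 in vehicle, and it correlated with the C1q chains at 0.980 to 0.991 (0.912 to 0.956 without AZD1480 replicate 1). Of its 19 measured genes 18 were lower (43.5% of all genes), with a median difference of -0.69. Lower at an unadjusted p under 0.05 were 3 of them (1.74% of all genes). Without AZD1480 replicate 1 the median was -0.15 with 15 lower.

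The macrophage genes with the smallest p were the Fc gamma receptors Fcgr3 (-0.92 ± 0.24) and Fcgr1 (-1.39 ± 0.50), whose groups did not overlap, and the mannose receptor Mrc1 (-1.04 ± 0.31). Lower values without overlap were found for 1.41% of all genes. These 3 genes were not typical of the list. Without AZD1480 replicate 1 Fcgr3, Fcgr1 and Mrc1 were at -0.81, -0.92 and -0.97, against the list median of -0.15. Csf1r, Adgre1 and Cd68 were then at -0.055, 0.010 and 0.073, and of the 19 genes 15 were lower and 4 higher. The part of the macrophage genes in the C1q values was not tested. The genes most like the C1q mean by Pearson r over the 8 arrays were Vsir at 0.992, Pnp at 0.992, Atxn3 at 0.991, Tom1l1 at 0.991 and Fbxo15 at 0.991. Vsir encodes the immune checkpoint receptor VISTA of myeloid and T cells, and Pnp encodes purine nucleoside phosphorylase. Over the 7 arrays without AZD1480 replicate 1 these correlations were 0.984, 0.946, 0.943, 0.943 and 0.940.

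The proteases C1s and C2 showed another pattern across arrays. Most AZD1480 tumours had less of both transcripts than any vehicle tumour, while AZD1480 replicate 1, the lowest array for C1q, was among the highest. C1s, the protease that cuts C4 and C2, was at 1.57, 0.083, 0.13 and -1.02 in AZD1480 replicates 1 to 4, against 1.66, 0.93, 0.67 and 0.51 in vehicle. Replicates 2, 3 and 4 of AZD1480 were below all vehicle arrays, and replicate 1 was second to vehicle replicate 1. The means were 0.19 ± 1.06 in AZD1480 and 0.94 ± 0.51 in vehicle (SD, n = 4 each), a difference of -0.75 ± 0.53. C1s2, a near-identical copy with a probe of its own, was at 1.74, 0.25, 0.17 and -0.84 in AZD1480 and at 1.87, 1.03, 0.73 and 0.52 in vehicle, and RNA of either copy may bind both probes, so the copies cannot be told apart with certainty.

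C2, the protease subunit of the classical convertase, was at 2.29, -1.53, -0.71 and -0.13 in AZD1480 replicates 1 to 4, against 2.23, 0.72, 1.16 and 0.13 in vehicle. Here AZD1480 replicate 1 was the highest of all arrays, and the other 3 AZD1480 arrays were again below all vehicle arrays. The means were -0.019 ± 1.64 in AZD1480 and 1.06 ± 0.89 in vehicle (SD, n = 4 each), a difference of -1.08 ± 0.83. With that array left out the groups did not overlap for C1s and C2, which was so for lower values in 2.41% of all genes. The differences were then -1.21 ± 0.39 for C1s and -1.85 ± 0.54 for C2 (limma, unadjusted p = 0.0161 and 0.0111, adjusted p = 0.996 for both). Within slide 1 they were -0.47 and -1.10, and within slide 2 they were -1.04 and -1.06.

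C1s and C2 correlated with the C1q chains at -0.484 to -0.251 over 8 arrays and at 0.007 to 0.422 over 7, so the sign rested on AZD1480 replicate 1. Lists of other cell types moved over the arrays too. The epithelial list had array means of -1.10 to -0.13 in AZD1480, against -1.03 to 1.16 in vehicle, where replicate 1 was the highest. Its mean in AZD1480 replicate 1 was -0.56, within the range of the other AZD1480 arrays. Of its 12 genes 11 were lower, 1 of them, Wfdc2 (-1.31 ± 0.51), at an unadjusted p under 0.05 (1.74% of all genes). The mesothelial list had means of -1.10 to 0.15 in AZD1480, the 0.15 in replicate 1, against -0.96 to 1.58 in vehicle, again highest in replicate 1. Its genes were lower in 6 of 6 cases, with 0 at an unadjusted p under 0.05. Their part in the C1s and C2 values was not tested.

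The components that cytokines induce, C3, C4b and Cfb, were lower in AZD1480 tumours by more on average than the C1q chains. Cfb had the largest difference of the 9 genes over all 8 arrays, but C2 exceeded it without AZD1480 replicate 1 (-1.85 for C2 and -0.99 for Cfb), with array quality weights (-1.65 and -1.38) and within slide 2 (-1.06 and -1.004). C1s also exceeded Cfb without AZD1480 replicate 1 (-1.21) and within slide 2 (-1.04). C3, the central component that every pathway cleaves, was at 2.69, 6.25, 6.53 and 6.55 in AZD1480 replicates 1 to 4, against 6.33, 6.47, 6.99 and 6.91 in vehicle. Only replicate 1 of AZD1480 was far from the rest, and replicates 3 and 4 lay within the vehicle range. The means were 5.51 ± 1.88 in AZD1480 and 6.67 ± 0.32 in vehicle (SD, n = 4 each), a difference of -1.17 ± 0.85. The second C3 probe gave -1.15 ± 0.86. Leaving out that array gave a difference of -0.23 ± 0.21.

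C4b, whose product is cut by C1s and forms the classical convertase with C2, was at 0.67, 1.86, 2.34 and 1.95 in AZD1480 replicates 1 to 4, against 2.50, 2.30, 2.75 and 3.08 in vehicle. All AZD1480 arrays but replicate 3 were below every vehicle array, and replicate 3 was just above the lowest one. The means were 1.70 ± 0.72 in AZD1480 and 2.66 ± 0.34 in vehicle (SD, n = 4 each), a difference of -0.95 ± 0.37 (1.94-fold; limma, unadjusted p = 0.0331, adjusted p = 0.974). The C4b probe also lists a transcript now assigned to C4a, a near-identical copy with no probe named for it alone, so C4b and C4a cannot be told apart.

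Cfb, the factor B gene, was at -4.51, -1.87, -0.67 and -1.43 in AZD1480 replicates 1 to 4, against -0.33, -0.91, -0.18 and 0.09 in vehicle. Replicates 1, 2 and 4 of AZD1480 were below every vehicle array, and replicate 3 lay within the vehicle range. The means were -2.12 ± 1.67 in AZD1480 and -0.33 ± 0.42 in vehicle (SD, n = 4 each), a difference of -1.79 ± 0.76 (3.45-fold; limma, unadjusted p = 0.0481, adjusted p = 0.974). Without AZD1480 replicate 1 the differences were -0.61 ± 0.23 for C4b and -0.99 ± 0.35 for Cfb (limma, unadjusted p = 0.0343 and 0.0246, adjusted p = 0.996 for both). Within slide 1 the differences of C3, C4b and Cfb were -1.93, -1.14 and -2.57, and within slide 2 they were -0.41, -0.77 and -1.004.

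Serping1, the C1 inhibitor gene, was at 1.68, 3.59, 4.15 and 3.18 in AZD1480 replicates 1 to 4, against 3.99, 4.65, 4.48 and 4.22 in vehicle. Replicate 3 of AZD1480 lay inside the vehicle range and the other 3 below it. The means were 3.15 ± 1.06 in AZD1480 and 4.33 ± 0.29 in vehicle (SD, n = 4 each), a difference of -1.18 ± 0.49 (2.27-fold; limma, unadjusted p = 0.0440, adjusted p = 0.974). The second probe gave -1.18 ± 0.53 (limma, unadjusted p = 0.0554). Without AZD1480 replicate 1 the difference was -0.70 ± 0.27, and it was -1.68 within slide 1 and -0.69 within slide 2.

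**Figure D2:**
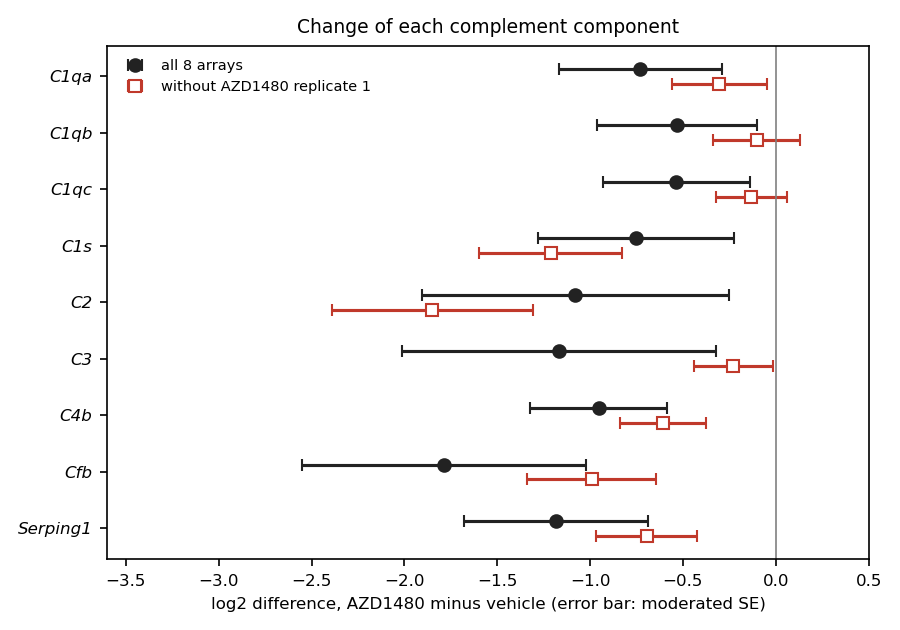
Log2 difference, AZD1480 minus vehicle (x axis), of each complement gene with limma's moderated SE, over all 8 arrays (filled circles) and without AZD1480 replicate 1 (open squares). All 9 differences are below 0 in both. Leaving out the array moved the C1q chains, C3, C4b, Cfb and Serping1 towards 0, and C1s and C2 away from it.

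Leaving out AZD1480 replicate 1 changed which genes stood out. C1s, C2, C4b, Cfb and Serping1, 5 of the 9, then had an unadjusted p under 0.05, where 2.14% of all genes were lower by that rule, and C3 and the C1q chains did not. The adjusted p was 0.996 for each of the 9. A term for treatment by slide gave adjusted p-values of 0.979 to 0.999 for the 9 genes (limma).

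The study's arrays allow the C1q chains to be set against the inducible components within each tumour. The mean of the C1q chains, centred on vehicle, was -1.86, -0.47, 0.27 and -0.34 in AZD1480 replicates 1 to 4, against -0.037, -0.21, -0.021 and 0.26 in vehicle. The mean of C3, C4b and Cfb was -3.38, -0.92, -0.27 and -0.64 in AZD1480, against -0.17, -0.38, 0.19 and 0.36 in vehicle. In all 4 AZD1480 tumours the centred inducible mean was lower than the centred C1q mean. The difference between the means was -1.53, -0.45, -0.53 and -0.30, while in vehicle tumours it was -0.13, -0.17, 0.21 and 0.097. In AZD1480 replicate 3 the C1q mean was above the vehicle level and the inducible mean lay within the vehicle range.

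**Figure D3:**
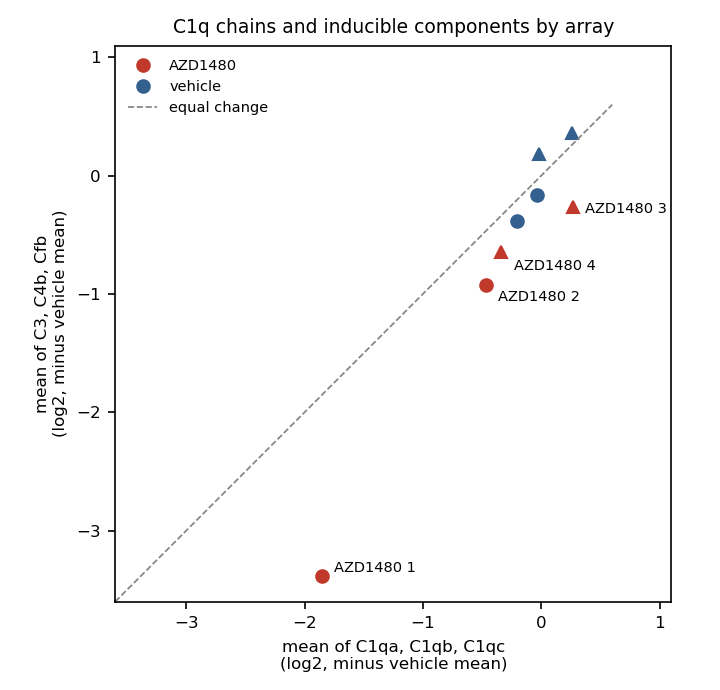
Mean of C3, C4b and Cfb (y axis) against mean of C1qa, C1qb and C1qc (x axis) in each tumour, both as log2 values minus the vehicle mean, with AZD1480 in red and vehicle in blue, circles for slide 1 and triangles for slide 2. The dashed line marks equal change, and the 4 AZD1480 tumours lie below it, with differences of -1.53 to -0.30. Vehicle replicates 1 and 2, on slide 1, also lie below it, at -0.13 and -0.17. Vehicle replicates 3 and 4, on slide 2, lie above it.

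Each of the 9 pairs of an inducible gene and a C1q chain was tested on the log2 difference within an array, by a two-sided exact permutation test over the 70 ways of drawing 4 of 8 arrays. None of the pairs passed 0.05 after Benjamini-Hochberg adjustment over the 9 pairs, which share genes and arrays. Cfb relative to C1qa, C1qb and C1qc differed by -1.06, -1.26 and -1.25, and C4b relative to C1qc by -0.42. In each of these 4 pairs the 4 AZD1480 arrays were all below the 4 vehicle arrays (exact p = 0.0286, the smallest that 4 against 4 arrays allow, adjusted p = 0.0643). C4b relative to C1qb was at -0.42 (exact p = 0.0571, adjusted p = 0.103) and relative to C1qa at -0.22 (exact p = 0.143, adjusted p = 0.214).

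C3 relative to the C1q chains had differences of -0.44, -0.64 and -0.63 with exact p-values of 0.257 to 0.657, and its groups overlapped. Without AZD1480 replicate 1 the Cfb pairs were at -0.69, -0.89 and -0.86, C3 relative to C1qa was at 0.076, and the mean differences were -0.18 for the C1q chains and -0.61 for the inducible genes. Within slide 1 the difference of the C1q mean was -1.04 and that of the inducible mean -1.88, and slide 2 gave -0.16 and -0.73.

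The inducible genes were read beside lists of interferon-induced and acute phase genes outside complement. All 16 interferon-induced genes were lower, 10 of them at an unadjusted p under 0.05 (1.74% of all genes) and 9 without overlap between the groups (1.41% of all genes), with a median difference of -1.21. Their array means were -2.92, -1.48, -0.86 and -1.16 in AZD1480 replicates 1 to 4, against -0.20 to 0.26 in vehicle, so all 4 AZD1480 arrays were below all vehicle arrays. The genes with the smallest p were the antiviral GTPase gene Mx1 (-4.37 ± 0.56), well above background on 1 AZD1480 and 4 vehicle arrays, and the immunoproteasome subunits Psmb9 (-0.94 ± 0.16) and Psmb8 (-1.03 ± 0.17). The median was -0.92 without AZD1480 replicate 1, with 12 genes at an unadjusted p under 0.05 (2.14% of all genes).

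Of the 18 listed acute phase genes 11 were measured and 10 were lower (43.5% of all genes), with a median of -1.47 (-1.12 without AZD1480 replicate 1). Lower at an unadjusted p under 0.05 were 5 of them (1.74% of all genes). Those with the smallest p were Lcn2, which encodes an iron-siderophore binding protein (-2.16 ± 0.59), Lrg1, a secreted leucine-rich glycoprotein (-1.47 ± 0.43), and Serpina3g, an intracellular protease inhibitor (-2.64 ± 0.84, well above background on 2 AZD1480 and 4 vehicle arrays). The interferon list correlated over 8 arrays with Cfb at 0.960 and with C4b at 0.958 (0.900 and 0.873 over 7 arrays), and with C3 at 0.849 (0.485). Such correlations were not particular to the inducible genes. The interferon list correlated with the C1q chains at 0.853 to 0.907 (0.465 to 0.695) and with Serping1 at 0.905 (0.691). For C1s and C2 it was at 0.004 and -0.041 (0.739 and 0.782). The acute phase list correlated with Cfb at 0.904 (0.945 over 7 arrays) and with C3 at 0.729 (0.598). With the C1q chains it was at 0.751 to 0.840 (0.493 to 0.747), and with C2 at 0.184 (0.832). The macrophage list correlated with Cfb at 0.974 (0.870) and with C3 at 0.922 (0.519). The part of these lists in the values of the inducible genes was not tested.

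The genes most like the mean of C3, C4b and Cfb by Pearson r over the 8 arrays were Fbxo15 at 0.994, Lgals3bp at 0.990, Cd44 at 0.989, Tor3a at 0.989 and Fcrls at 0.988. Lgals3bp encodes a secreted galectin-3 binding glycoprotein, and Cd44 encodes a hyaluronan receptor. Fbxo15 is among the most like genes of both sets. Over the 7 other arrays these correlations were 0.951, 0.916, 0.967, 0.950 and 0.926. The inducible genes correlated among themselves at 0.900 to 0.983 (0.685 to 0.960 without that array) and with the C1q chains at 0.923 to 0.981 (0.461 to 0.901).

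C2, Cfb and C4b lie near each other in the class III region of the major histocompatibility complex on chromosome 17, among genes that have no part in complement. The other genes of that region showed no common direction: of 13 measured, 7 were lower and 6 higher, 0 at an unadjusted p under 0.05, with a median of -0.046. Those with the smallest p were the histone methyltransferase gene Ehmt2 (0.30 ± 0.25), the heat shock gene Hspa1a (1.45 ± 1.23) and Zbtb12 (-0.19 ± 0.18). Without AZD1480 replicate 1 their median was 0.13, with 4 lower and 9 higher. Of these, 1 had an unadjusted p under 0.05, Neu1, which was higher (0.98 ± 0.26). By that rule 2.2% of all genes were higher.

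The rest of the pathway was described from lists of its genes by role. Of 12 other recognition and initiating genes 7 were measured, 6 lower and 1 higher, with 0 at an unadjusted p under 0.05 and a median of -0.64. C1ra, which encodes the C1r protease that activates C1s, was at 1.16, 0.51, 0.41 and -0.97 in AZD1480 replicates 1 to 4, against 1.92, 1.32, 0.59 and 0.77 in vehicle (-0.87 ± 0.49). Like C1s it was high in AZD1480 replicate 1. Without that array it was at -1.16 (unadjusted p = 0.0411, adjusted p = 0.996, limma), its copy C1rb was at -0.67 and C1s2 was at -1.18. At an unadjusted p under 0.05, 3 genes of the list were then lower (2.14% of all genes) and 1, Masp1, higher (2.2% of all genes).

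Of the lectin pathway genes, Fcna, which encodes ficolin A, was at -1.25 ± 0.57. Masp1, a lectin pathway protease gene, was higher at 1.48 ± 0.68 without overlap between the groups, as were 1.21% of all genes, but was well above background on only 3 AZD1480 and 2 vehicle arrays. In the alternative pathway, Cfp, the properdin gene, was at 0.19 ± 0.22. Cfd, the factor D gene, was at -8.53, -8.51, -2.96 and -8.63 in AZD1480 replicates 1 to 4, against -1.02, -8.84, 4.52 and -2.83 in vehicle, well above background on 1 AZD1480 and 3 vehicle arrays (-5.11 ± 2.71). Factor D is made by fat cells, and the adipocyte list had array means of -1.66 to -0.91 in AZD1480, against -1.16 to 2.94 in vehicle, with the 2.94 in the same vehicle replicate 3 that was highest for Cfd. Of the 7 listed adipocyte genes 5 were measured, all 5 lower and 0 at an unadjusted p under 0.05, Adipoq and Cidec did not pass the filter, and their part in the Cfd values was not tested.

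Of 7 terminal components, which form the lytic pore, 3 were measured, and C7 (0.66 ± 0.50), Hc, the mouse C5 gene (0.59 ± 0.61), and C8g (-0.019 ± 0.22) had 0 at an unadjusted p under 0.05. Of 17 regulators 11 were measured, 8 lower and 3 higher, with a median of -0.13. Cfi, which encodes factor I, the protease that inactivates the protein fragments C3b and C4b, was the only one at an unadjusted p under 0.05 (limma, unadjusted p = 0.0364, adjusted p = 0.974). It was at -3.06, -1.23, -0.40 and -0.58 in AZD1480 replicates 1 to 4, against -0.34, -0.23, 1.23 and 0.43 in vehicle. The 4 AZD1480 arrays were all below the 4 vehicle arrays, as was so for 1.41% of all genes. The difference was -1.59 ± 0.63, and -1.01 without AZD1480 replicate 1.

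Cd55, which encodes the membrane regulator that dissociates convertases, was at -0.59 ± 0.26, and its copy Cd55b at -0.55 ± 0.36.

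All 10 listed receptors and binding proteins were measured, 8 lower and 2 higher, with 0 at an unadjusted p under 0.05 and a median of -0.48 (-0.071 without AZD1480 replicate 1). The smallest p-values belonged to Cd93 (-0.52 ± 0.31), the integrin chain gene Itgb2 (-0.47 ± 0.32) and the second C5a receptor gene C5ar2 (-0.32 ± 0.26). C3ar1, the C3a receptor gene, was at -0.49 ± 0.43 and C5ar1, the C5a receptor gene, at -0.92 ± 0.77. Both were lowest in AZD1480 replicate 1, as the C1q chains were.

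**Figure D4:**
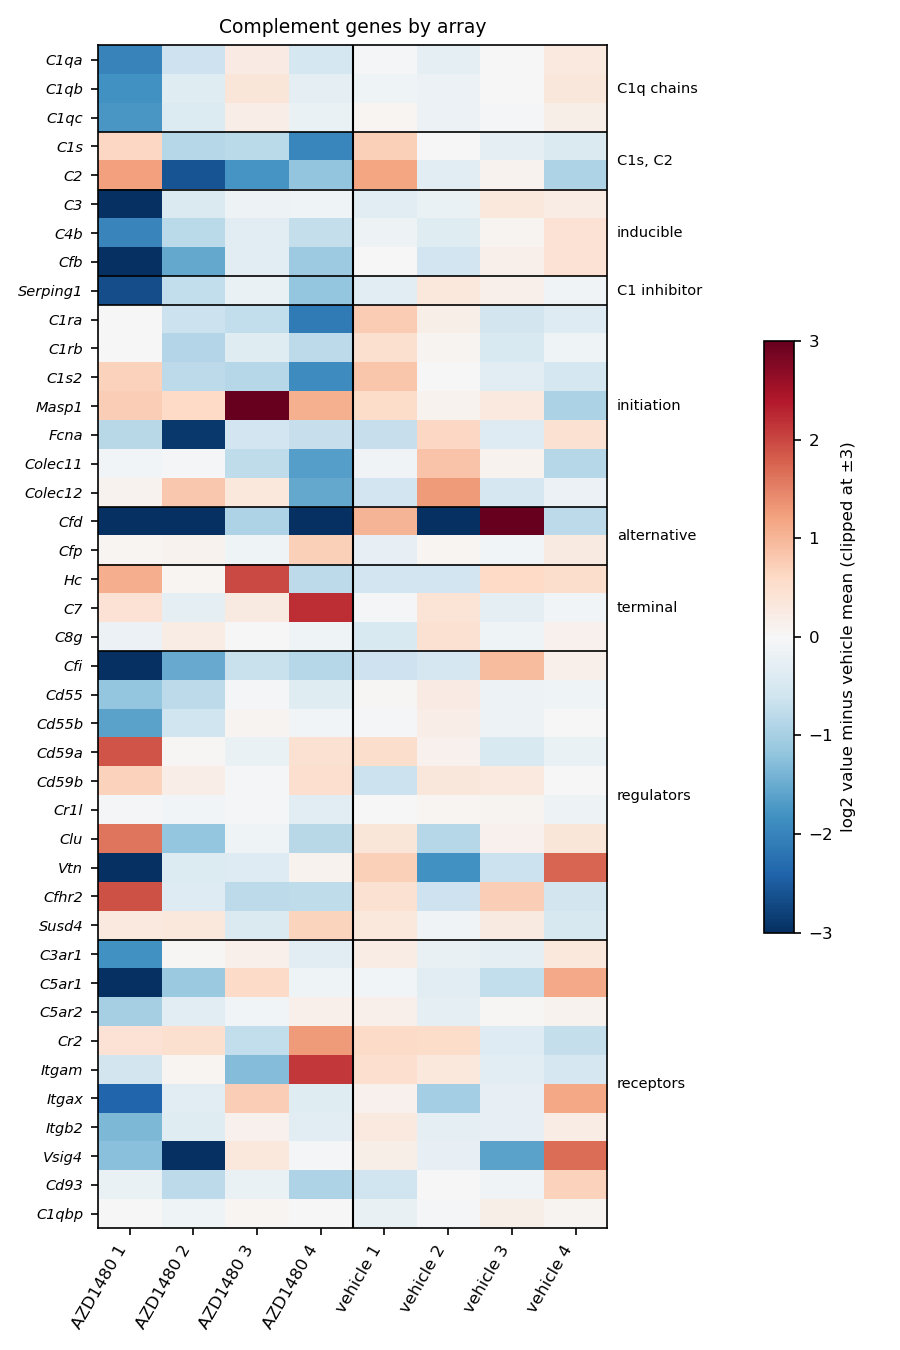
Log2 value minus the vehicle mean, clipped at ±3, of complement genes measured (rows, grouped by role) in the 4 AZD1480 and the 4 vehicle tumours (columns). AZD1480 replicate 1 is low for the C1q chains, C3, C4b, Cfb, Serping1, Cfi, C5ar1, Vtn and Itgax, among others. It is high for C1s, C2, Clu, Cfhr2 and Cd59a, among others. Cfi is lower in all 4 AZD1480 tumours than in any vehicle tumour.

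Markers of the other cell types did not pass the test either. The stromal list had array means of -1.004 to 0.38 in AZD1480, against -0.37 to 0.33 in vehicle, with 9 of 12 genes lower and 0 at an unadjusted p under 0.05. Of 8 endothelial genes 5 were lower, and Vwf (-1.12 ± 0.32) and Lyve1 (-1.17 ± 0.37) had an unadjusted p under 0.05 (1.74% of all genes). The T, NK and B cell list, with 4 of 8 genes measured, the neutrophil list, with 5 of 7, the red cell list, with 3 of 5, and the hepatocyte list, with 6 of 10, had 0 at an unadjusted p under 0.05. Their medians were 0.11, 0.12, 0.052 and -0.16.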

How the data were processed

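RNA of 8 ovarian tumours, 4 per group and each from its own mouse, was read on Agilent one-colour arrays. The scans were quantified in Agilent Feature Extraction 9.5.3, per the submitters' processing notes. The deposited processed intensity of a spot is background-subtracted and not scaled between arrays, and probe positions are on mm9, per the file headers. The authors also deposited a value table on a log2 scale, which served as an alternative.

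Log2 processed intensities were scaled by subtracting the 75th percentile of each array over the 43020 spots that are not controls. Spots with an outlier flag were dropped and the others of a probe averaged. Probes were kept if well above background on at least 4 of 8 arrays, and the brightest kept probe stood for a gene, which gave 19778 genes. The test was limma's (version 3.58.1, R 4.3.3), two-sided, by lmFit and eBayes with no term but treatment, and a gene was called at a Benjamini-Hochberg adjusted p under 0.05. In data simulated at these levels and spreads over the 19778 genes, this recovered 18% of 100 genes changed by a log2 size of 1. It recovered 62% of 100 changed by 2, with 1 false call at each size. The arrays themselves gave 0 calls, and Mx1 at -4.37 ± 0.56 had an adjusted p of 0.647 (limma). The simulated shares may therefore overstate what these arrays could detect. Intensities near background and 4 arrays per group limit the precision.

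Of the probes, 26049 took their symbol from the RefSeq gene table by accession, 8658 from the array file, and 4722 had none. The members and lists were chosen with earlier results of these data known. Named genes are the 9 members, of each other complement list those at an unadjusted p under 0.05 and in any case the 3 with the smallest p, and C1ra, C4a, Cfd, C3ar1, C5ar1 and a gene not reported here, where measured. Also named are the 5 genes most like each set of members, without clone and model names, and up to 3 of each list described. Alternatives were normexp correction (offset 50), quantile normalization, median scaling, other filters on dim probes, the mean of probes, the deposited table, slide, array weights, a replicate block and leaving out each array. Same-numbered arrays of the 2 groups deviated with correlations of 0.36, 0.36, 0.13 and -0.059, so the numbers were not taken to pair the tumours.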

Additional observations from a re-analysis of the deposited data

Results flagged for a closer look

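For C3 the AZD1480 arrays held 1 value far from the others. AZD1480 replicate 1 was at 2.69, and its gap to the nearest AZD1480 array was 0.922 of the range of the group, above Dixon's critical value for 4 samples. Of 24 groups checked, this was the 1 that passed, and chance passes about 1 group in 20. Without the array the difference of C3 was -0.23, against -1.17 with it.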

How the results depend on the processing

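The 9 members kept their sign in 180 of 180 recalculations, 20 per gene. Limma adjusted p-values were 0.526 to 1.00, and 0 genes of the whole table passed in any. The recalculations reuse the same arrays, so they are not independent. A term for slide or replicate number cannot change the difference in this balanced design. Other filters on dim probes also left C1qa at -0.731 and Cfb at -1.787, so the tally is no measure of robustness. Numbers at an unadjusted p under 0.05 moved more. Leaving out 1 array in turn gave 0 to 5 members, 233 to 580 lower genes and 194 to 1081 higher genes. Of the members, 5 were lower at that level without AZD1480 replicate 1, 1 each without AZD1480 replicate 2, AZD1480 replicate 4 or vehicle replicate 2, and 0 without vehicle replicate 1, 3 or 4. Within slide 1 there were 594 lower genes, 131 higher genes and 0 members. Slide 2 alone gave 343 lower genes, 325 higher genes and 1 member, which was lower. Array quality weights gave 481 lower genes, 591 higher genes and 5 members, which were lower. C4b relative to C1qa was at 0.033 within slide 1, and C3 relative to C1qa at 0.076 without AZD1480 replicate 1, opposite in sign to the full comparison; leaving out other arrays took C3 relative to C1qa as low as -0.72. The cause was not tested. With a replicate block Cfb was at -1.79, and 4 members and 461 lower and 419 higher genes had an unadjusted p under 0.05. The block changed no call at an adjusted p under 0.05, and the numbers were not taken to pair the tumours. Leaving out arrays moved the C1q mean between -0.89 and -0.18 and the mean of C3, C4b and Cfb between -1.65 and -0.61. Signal over background limits Masp1, C7 and Cfd, each dim on several arrays.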
